A study of Citrus sinensis with 72 samples.

Results

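The segment membrane (SM) and the albedo (AL) are neighbouring tissues of the sweet orange fruit, and their transcriptomes were compared here at 50 days after flowering (DAF), the first of 6 sampled stages. The 3 libraries of the segment membrane at that stage (SM1) were set against the 3 of the albedo (AL1). These were 6 of the 72 libraries, and 16643 of the 30940 genes entered the comparison because their level reached 1 FPKM, that is fragments per kilobase of transcript scaled to the size of the library, in at least 3 of the 6. Fruits came from Citrus sinensis navel orange of the cultivar 'Fengjie 72-1', grafted on Poncirus trifoliata in a single orchard, and no treatment or altered genotype was part of either group. Each replicate was a pool of fruits from 3 of 9 trees, dissected by hand, so the spread between replicates is that between pools of trees. The epicarp (EP) and the juice sac (JS) of the same fruits, and all 4 tissues at stages 2 to 6, served below as other samples.

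The albedo is the white, spongy inner layer of the peel, built of loosely joined parenchyma with large air spaces, pectin-rich walls and vascular bundles. The segment membrane is the thin wall that encloses each segment, and the juice sacs grow inward from its inner face. The albedo thus lies between epicarp and segment membrane, and the juice sac is the innermost tissue. The files give gene IDs without names, and none of the IDs matched the annotation table at hand, so genes are named by their IDs and no role, position or sequence is stated for them.

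The AL1 libraries held 16450997 to 18532262 fragments and the SM1 libraries 18401407 to 21213543, as recovered from the steps of the FPKM values. Genes with an FPKM of at least 1 numbered 15884 ± 134 in AL1 and 16437 ± 133 in SM1 (SD, n = 3 each), and all 3 SM1 libraries lay above all 3 AL1 libraries. The two-sided exact permutation p of 0.1 is the smallest that 3 against 3 can give. The 10 highest genes took 7.88% ± 0.875 of the FPKM sum in AL1 and 6.88% ± 0.316 in SM1 (n = 3 each, exact permutation p = 0.2), so that measure did not separate the tissues. The RNA integrity listed by the study was lowest in AL1 replicate 1, and no AL1 library exceeded any SM1 library in it, so that integrity and tissue cannot be told apart.

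On log2(FPKM + 1), libraries of the same tissue correlated over the tested genes at 0.953 to 0.985 in AL1 and 0.954 to 0.972 in SM1. Pairs of one AL1 and one SM1 library correlated at 0.868 to 0.904. Since markers could not be matched by name, the tissue labels were checked with genes that stood at least 3 (log2) above every other tissue on average over stages 2 to 6. The SM list held a single gene, Cs5g17820, with an FPKM of 164 to 253 in SM1 and 5.69 to 10.6 in AL1. The AL list was empty at that limit, and at a limit of 2 it held 2 genes, whose summed FPKM was 176 to 277 in AL1 and 4.02 to 5.35 in SM1. Both small lists were thus high in the tissue of their label.

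Genes of the outer neighbour, the epicarp, and of the inner neighbour, the juice sac, were also read in both tissues. The 229 genes of the EP list summed to an FPKM of 10210 to 13608 in AL1 and 6157 to 7304 in SM1, against 40069 to 45362 in EP1. Of these genes, 12 were listed at 0 in every AL1 library and 16 in every SM1 library. The sum was higher in AL1, while by number 38 of the 116 tested EP genes were higher in SM1 and 21 lower. Over all genes tested, 14.8% were higher in SM1 and 8.92% lower. At the limit of 2, the 588 EP genes summed to 24332 to 31499 in AL1 and 23353 to 24506 in SM1, which overlapped. Of the 339 of them that were tested, 97 were higher in SM1 and 73 lower. The 3 genes of the JS list summed to 8.76 to 85.1 in SM1 and 1.10 to 1.88 in AL1, against 45.2 to 49.5 in JS1. Only 1 of these 3 genes was tested, and it was higher in SM1. At the limit of 2, the 34 JS genes summed to 317 to 611 in SM1 and 64 to 102 in AL1, against 2523 to 3031 in JS1, and of the 15 tested 7 were higher in SM1 and 0 lower. By summed FPKM, the juice sac genes were thus higher in the segment membrane at both limits, though the SM1 libraries spread widely at the limit of 3. The epicarp genes had no single direction. The part of RNA carried over from an adjoining tissue was not tested.

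The segment membrane and the albedo differed in 3947 genes at 50 DAF, which was 23.7% of those tested (limma on log2(FPKM + 1), Benjamini-Hochberg adjusted p under 0.05, no fold threshold). Higher levels in SM1 were found for 2462 genes (14.8%) and lower levels for 1485 (8.92%). The median log2 fold change was 1.06 among the genes higher in SM1 and -1.13 among those lower, beside a median of 0.13 over all genes tested. At least 2-fold differences were found for 1340 genes higher in SM1 (8.05%) and 892 lower (5.36%). From there the ratio of higher to lower genes grew with the size of the difference on the deposited values. There were 381 against 188 genes at 4-fold or more, 138 against 35 at 8-fold or more, and 48 against 10 at 16-fold or more. In bulk tissue, a difference in the share of a cell type and a difference in RNA per cell cannot be told apart.

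The plain majority of genes higher in SM1 depended on the scale. After rescaling by median ratios, which centre each library on a common reference, 1866 genes were higher and 1856 lower, and the median of all genes moved by 0.12 to 0.01. Of the genes called on the deposited values, 1866 of the 2462 higher and all 1485 lower kept their call under that scaling, and none was called the other way.

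**Figure D1:**
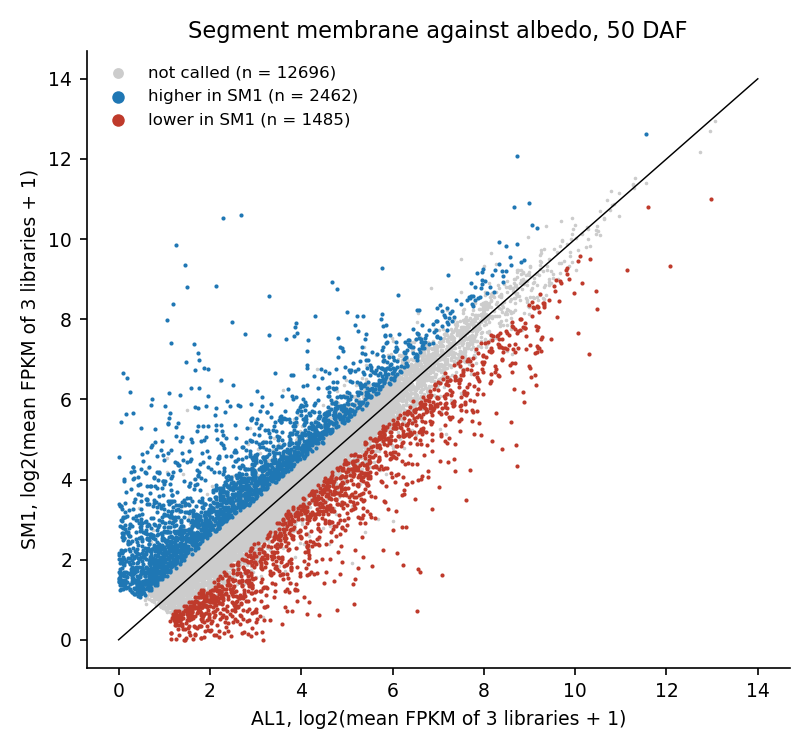
Mean FPKM of 16643 genes in AL1 (horizontal axis) and SM1 (vertical axis), both as log2(mean of 3 libraries + 1), with the diagonal as a line. Blue points are the 2462 genes higher in SM1 and red points the 1485 lower, and the points farthest from the diagonal lie on the SM1 side.

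The 3 libraries of each tissue did not overlap for 4500 genes in the direction of SM1 (27.0% of those tested) and for 2534 in the direction of AL1 (15.2%), and these included 2456 and 1483 of the called genes. The called genes were chosen for their levels in these same libraries, so their larger share of the FPKM sum in their own tissue is a description. Genes higher in SM1 took 17.8 to 19.1% of the FPKM sum in the SM1 libraries and 7.05 to 7.27% in the AL1 libraries. Genes lower in SM1 took 7.84 to 9.55% in SM1 and 21.1 to 21.6% in AL1. Few genes were listed at 0 throughout one tissue: 7 genes were listed at 0 in every AL1 library with an FPKM of at least 1 in every SM1 library, and 3 genes showed the converse. Among the 100 most abundant genes of each tissue, 65 were shared. Of the 135 genes in either list 21 were higher in SM1, 29 lower and 85 not called, beside 14.8% higher and 8.92% lower over all genes tested.

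The number of calls depended on single libraries. It was 1290 without SM1 replicate 2, 2090 without AL1 replicate 2, 2125 without AL1 replicate 3, 2400 without SM1 replicate 1, 3083 without SM1 replicate 3 and 4169 without AL1 replicate 1. When same-numbered replicates formed a block, 4899 genes were called, 3115 higher and 1784 lower.

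Cs5g25660 had the largest difference among genes whose mean FPKM reached 10 in the higher tissue. Its FPKM was 1405, 1585 and 1405 in the SM1 libraries and 3.68, 0 and 7.92 in the AL1 libraries. The log2 fold change was 8.72 (SE 0.69, adjusted p = 0.000336, limma), and the 2 groups lay far apart in spite of the spread in AL1. The size of that fold change depended on the low AL1 values, with 7.82 without AL1 replicate 2, 7.48 with a pseudocount of 5 and 10.39 with limma-voom. At 50 DAF the gene stood at 72.0 to 102 in the juice sac, far below the segment membrane, and at 0 to 0.157 in the epicarp. In the segment membrane its mean FPKM went from 1465 at stage 1 to 309 at stage 2, 9.22 at stage 3 and 0.697 at stage 6.

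Cs6g11590 followed the same course. Its FPKM was 762, 1065 and 950 in SM1 and 1.71, 0.193 and 2.24 in AL1, with a log2 fold change of 8.71 (SE 0.36, adjusted p = 4.92e-05, limma). The juice sac held 18.8 to 32.2 and every epicarp library at 50 DAF was listed at 0. The fold change was 7.19 with a pseudocount of 5 and 9.74 with one of 0.1. By stage 3 the segment membrane was at a mean of 2.67, and every SM5 and SM6 library was listed at 0. For both genes AL1 replicate 2 was the lowest albedo library and replicate 3 the highest.

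In the other direction, Cs5g01970 had an FPKM of 60, 117 and 98.4 in AL1 and 0.98, 0.50 and 0.46 in SM1 (log2 fold change -5.78, SE 0.27, adjusted p = 6.99e-05, limma). The fold change was -4.05 with a pseudocount of 5 and -7.14 with limma-voom. The juice sac was lower still, at 0.0451 to 0.0882, and the epicarp ranged from 4.77 to 34.5. This difference closed with age because the segment membrane rose: its mean FPKM was 3.56, 15.5, 27.7, 91.0 and 107 at stages 2 to 6, while that of the albedo was 58.5, 54.5, 64.7, 213 and 168. The log2 fold change at stage 6 was -0.64 (SE 0.15, adjusted p = 0.00762, limma).

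Novel00378 had an FPKM of 110, 134 and 160 in AL1 and 2.70, 1.66 and 1.81 in SM1 (log2 fold change -5.47, SE 0.20, adjusted p = 3.46e-05, limma), and the fold change was -4.29 with a pseudocount of 5. It was higher in the albedo at stages 1 to 4 and 6, and its albedo means ranged from 135 to 458 over the 6 stages. Its mean in the juice sac lay between 1.53 and 2.63 at every stage. In the segment membrane the mean rose to 98.6 at stage 5, where the difference from the albedo did not pass the test (log2 fold change -0.44, SE 0.22, adjusted p = 0.127, limma).

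**Figure D2:**
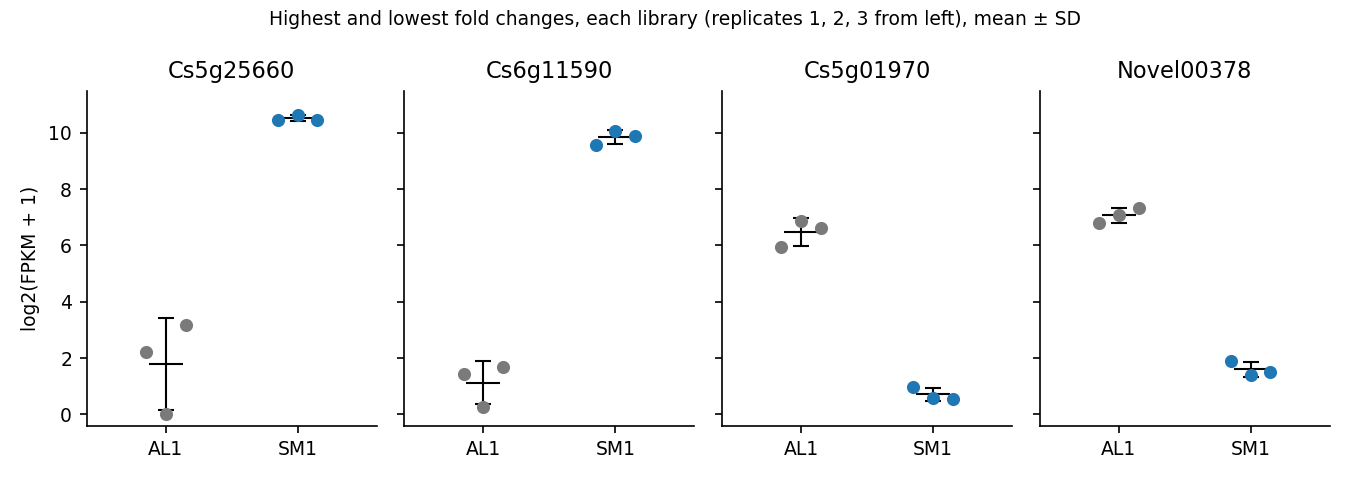
Each library's log2(FPKM + 1) in AL1 and SM1 for the 2 genes with the highest and the 2 with the lowest fold changes, with replicates 1, 2 and 3 from left to right and bars for the mean ± SD of 3 libraries. In each panel the groups do not overlap, and the AL1 libraries of Cs5g25660 spread from 0 to 7.92 FPKM.

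The genes with the largest differences were followed through the series as sets, chosen for their values and given without a test. The 138 genes at least 8-fold higher in SM1 had a median FPKM of 40.0 in SM1, 38.7 in JS1, 8.08 in EP1 and 1.32 in AL1. They made up 2.75 to 3.39% of the FPKM sum in the SM1 libraries and 0.141 to 0.153% in the AL1 libraries. In the juice sac 70 of them were at least as high as in SM1, while 45 were under 0.25 of the SM1 level. The set therefore held genes shared with the juice sac and genes much lower there than in the segment membrane. The highest tissue at 50 DAF was the juice sac for 60 genes, the segment membrane for 58 and the epicarp for 20. AL1 replicate 2 was the lowest AL1 library for 72 of the 138 genes, and AL1 replicate 3 the highest for 71.

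The choice by a high SM1 level favours a maximum at stage 1. Of the 24 tissue and stage groups, the highest mean was at stage 1 for 99 of the 138 genes and at stage 2 for 24, beside 34.8% of all genes tested with a maximum at stage 1. The median FPKM in the segment membrane was 18.4 at stage 2, 2.08 at stage 3, 1.00 at stage 4, 0.581 at stage 5 and 0.435 at stage 6. At stage 6 the level in the segment membrane had dropped more than 10-fold from that at stage 1 for 109 genes. The juice sac median moved likewise, with 38.7, 12.2 and 0.231 at stages 1, 2 and 6.

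The 35 genes at least 8-fold lower in SM1 were chosen for low SM1 levels. Their median FPKM was 74.3 in AL1, 27.7 in EP1, 2.62 in SM1 and 1.53 in JS1, and the highest tissue at 50 DAF was the albedo for 25 genes and the epicarp for 10. The albedo median was 54.7 at stage 2 and 29.6 at stage 6. In the segment membrane the median was 4.43, 14.1, 11.3, 17.7 and 12.1 at stages 2 to 6, and in the juice sac it was 4.31 at stage 6. SM1 replicate 2 was the lowest SM1 library for 26 of these 35 genes.

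**Figure D3:**
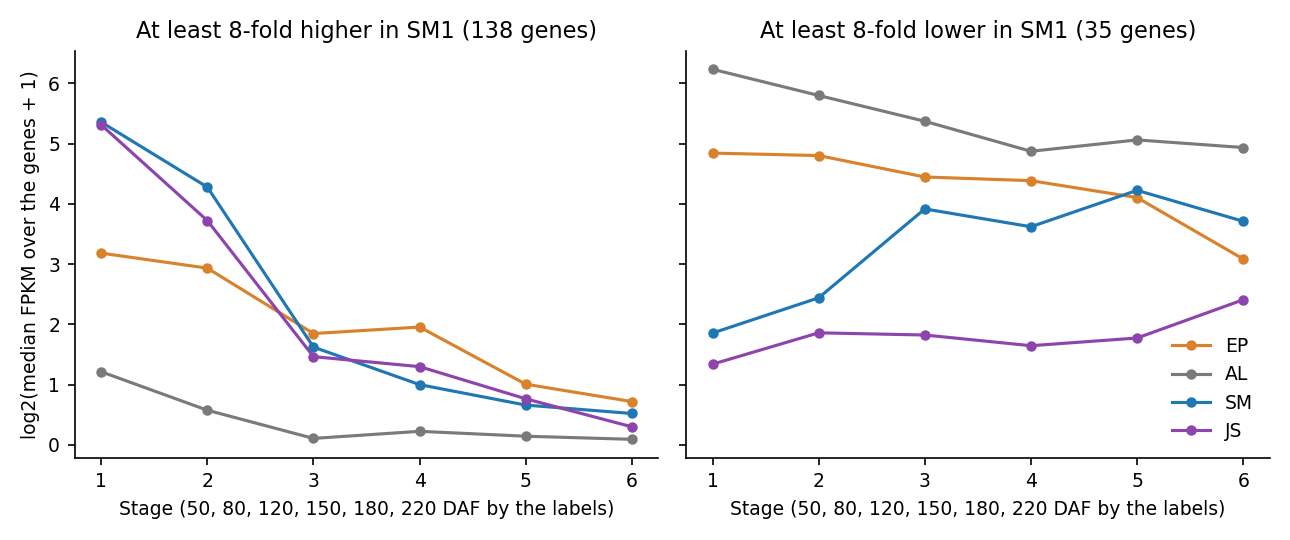
Median FPKM, as log2(median + 1), of the 138 genes at least 8-fold higher (left) and the 35 genes at least 8-fold lower (right) in SM1, for each tissue at the 6 stages. On the left the SM and JS lines fall together from about the same level, and on the right the SM line is higher at stages 3 to 6 than at stage 1 while the JS line stays low.

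The epicarp lies outside the albedo and the juice sac inside the segment membrane, and the comparison JS1 vs. EP1, made on 6 libraries that played no part in SM1 vs. AL1, showed where the called genes stood in these outer and inner neighbours. Over all 17522 genes tested, 22.2% were higher and 38.7% lower in JS1. Of the 2355 genes higher in SM1 that could be tested, 1119 (47.5%) were higher in JS1 and 427 (18.1%) lower, with a median log2 difference of 0.44. Of the 1287 genes lower in SM1 that could be tested, 699 (54.3%) were lower in JS1 and 205 (15.9%) higher, with a median of -0.73. The median over all genes of the SM1 vs. AL1 comparison was -0.21, so the 2 sets lay on either side of it.

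These shares varied less than the counts when a stage 1 library was left out. Genes higher in SM1 were higher in JS1 in 41.7 to 61.0% of cases, although their number was 1104 without AL1 replicate 1, 734 without AL1 replicate 2, 774 without AL1 replicate 3, 679 without SM1 replicate 1, 395 without SM1 replicate 2 and 741 without SM1 replicate 3. Genes lower in SM1 were lower in JS1 in 49.4 to 60.1% of cases, with 700, 359, 401, 517, 328 and 599 genes in the same fits. The shares called the opposite way were 13.6 to 19.8% and 12.6 to 18.6%. With JS1 vs. EP1 alone rescaled by median ratios, 5182 genes were higher and 4976 lower in JS1 over all genes tested. The counts were then 1313 higher and 292 lower for the set higher in SM1, and 622 lower and 266 higher for the set lower in SM1.

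By mean level over the 4 tissues at 50 DAF, the 2462 genes higher in SM1 were highest in the juice sac in 1029 cases, in the segment membrane in 901 and in the epicarp in 532. The 1485 genes lower in SM1 were highest in the albedo in 1037 cases, in the epicarp in 383 and in the juice sac in 65. Over all tested genes the epicarp was highest for 7339, the juice sac for 4172, the albedo for 2576 and the segment membrane for 2556. Since each set was chosen for the order of SM1 and AL1, the lower of these could not be its maximum, and the counts are a description.

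**Figure D4:**
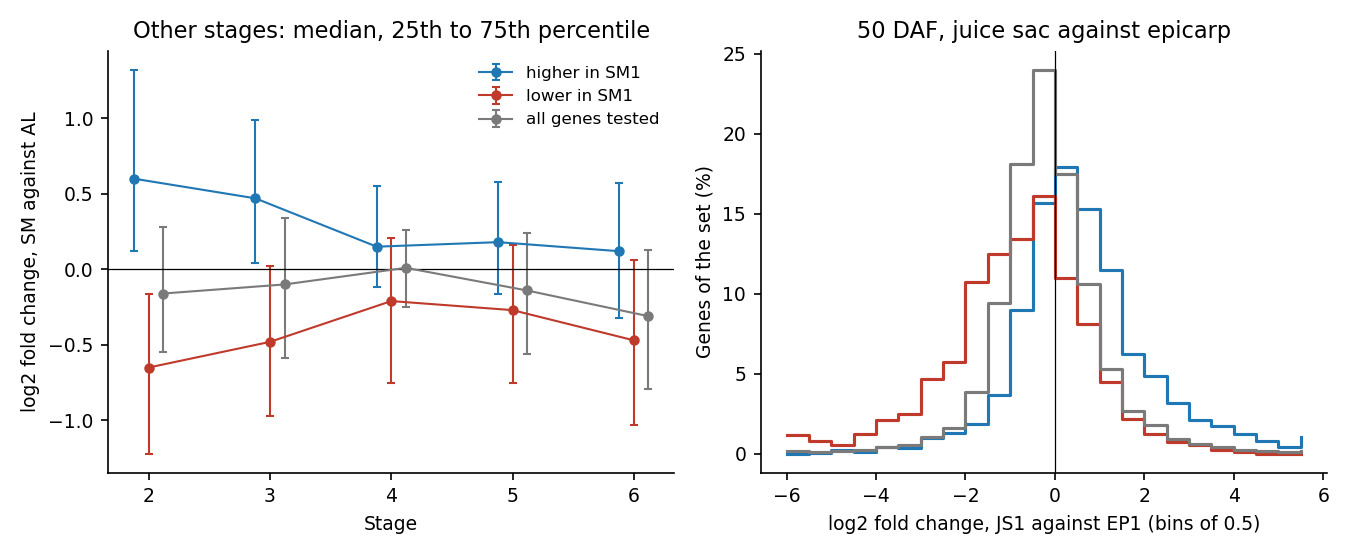
Left, the median and the 25th to 75th percentile of the log2 fold change of SM against AL at stages 2 to 6 for genes higher in SM1, lower in SM1 and all genes tested at stage 1. Right, the distribution of the log2 fold change of JS1 against EP1 for the same sets in bins of 0.5, as percent of the genes of the set, where genes higher in SM1 have a median of 0.44 and genes lower in SM1 a median of -0.73.

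The same tissues were compared at stages 2 to 6, in libraries not used for the stage 1 comparison but from the same trees. The genes higher in SM1 had a median log2 fold change of 0.60 at stage 2, 0.47 at stage 3, 0.15 at stage 4, 0.18 at stage 5 and 0.12 at stage 6. For all genes of the stage 1 comparison, the medians were -0.16, -0.10, 0.01, -0.14 and -0.31. The genes lower in SM1 had medians of -0.65, -0.48, -0.21, -0.27 and -0.47. Both sets kept their sign at each stage by the median. Since the median of all genes was also negative at stages 2, 3, 5 and 6, the sign of the lower set alone says little there. The distance of both sets from all genes was largest at stage 2.

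At stage 2, 631 of the 2089 tested genes of the set higher in SM1 (30.2%) were higher in SM2 and 9 were lower, beside 6.69% and 8.71% of all genes tested at that stage. Of the 1323 tested genes lower in SM1, 378 (28.6%) were lower in SM2 and 8 higher. The counts changed when a library of either stage was left out, and such a fit also has fewer replicates. Leaving out SM2 replicate 1, 2 or 3 left 98, 110 or 114 genes higher and 67, 65 or 65 lower, with none called the other way. Without AL2 replicate 2 the 378 became 214, while without AL2 replicate 1 the 631 and 378 rose to 854 and 487. Without SM1 replicate 1, 2 or 3 the 631 became 376, 286 or 392, and the 378 became 198, 211 or 213 without AL1 replicate 2, AL1 replicate 3 or SM1 replicate 2. The shares of the tested genes in these and the other fits without a stage 1 library were 24 to 47.6% and 22.7 to 38.9%.

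The order of the stages by number of calls depended on the fit. Each stage on its own libraries gave 2439, 1524, 976, 7196 and 8670 called genes at stages 2 to 6, and 1 fit of all 24 groups gave 5802, 6037, 2194, 5084 and 7244. At stage 3, 310 (17.2%) of the 1804 tested genes of the set higher in SM1 were higher in SM3 and 18 (0.998%) lower. Of the 1265 tested genes of the set lower in SM1, 161 (12.7%) were lower and 18 (1.42%) higher. Among all tested genes, 4.02% were higher and 5.91% lower. At stage 4 the same counts were 207 (11.2%) and 25 (1.36%) of 1842 tested, and 165 (13.1%) and 36 (2.87%) of 1256 tested. Among all tested genes, 3.35% were higher and 2.86% lower. The stage 3 and 4 counts in the direction of stage 1 fell by more than 1.5 times without any one of the SM libraries of that stage, to 30 to 59 and 14 to 49 at stage 3 and to 60 to 81 and 76 to 95 at stage 4. At stage 3 they were 107 and 43 without AL3 replicate 3 and 463 and 318 without AL3 replicate 1, and at stage 4 they were 101 and 53 without AL4 replicate 1 and 146 and 69 without AL4 replicate 3. At stage 5, 545 and 174 genes of the higher set and 436 and 143 of the lower set were called in the stage 1 direction and the opposite one, where 16.2% of all tested genes were higher and 30.1% lower. Without SM5 replicate 1 or 2, the 545 became 294 or 305.

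The stage 1 libraries moved these counts as well. Without SM1 replicate 2, the counts in the direction of stage 1 were 156 and 89 at stage 3, 103 and 103 at stage 4, and 180 and 204 at stage 5. They were 239 and 91, 165 and 87, and 303 and 229 without AL1 replicate 2, and 258 and 91, 172 and 91, and 326 and 244 without AL1 replicate 3. Without SM1 replicate 1 they were 202 and 118, 121 and 129, and 304 and 289. Without SM1 replicate 3 the stage 4 count of the higher set was 132. As shares of the tested genes, fits without a stage 1 library ranged from 14.4 to 31.9% and 13.3 to 17.2% at stage 3, 8.78 to 20.9% and 10.6 to 20.3% at stage 4, and 27.6 to 39.6% and 35.1 to 42.4% at stage 5.

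At stage 6 the background was larger, with 14.4% of all tested genes higher and 41.8% lower in SM6. Of the 1689 tested genes higher in SM1, 522 (30.9%) were higher in SM6 and 298 (17.6%) lower. Of the 1156 tested genes lower in SM1, 563 (48.7%) were lower in SM6 and 135 (11.7%) higher. Under median ratio scaling of that stage, 4156 genes were higher and 4073 lower in SM6 over all genes. The counts were then 845 higher and 144 lower for the set higher in SM1, and 403 lower and 243 higher for the set lower in SM1. Leaving out a stage 1 library gave 28.7 to 41.5% for the genes higher in SM1 and SM6, with 178 genes without SM1 replicate 2, and 46.7 to 55.8% for the genes lower in both, with 258 genes in that fit. Without SM6 replicate 3 the 522 became 342, and without AL6 replicate 2 the 298 became 190.

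Of the 2462 genes higher in SM1, 1380 were not called higher at any later stage, of which 824 were tested at each of them, and 92 were called higher at all 6 stages. Of the 1485 genes lower in SM1, 670 were not called lower later, of which 413 were tested at each stage, and 23 were called lower at all 6. A missing call does not show that a difference was gone. Over the 13641 genes tested at every stage, the 92 and 23 genes were 0.674% and 0.169%. Both counts rested on single libraries. The 92 became 18, 19 and 27 without SM3 replicate 3, 2 or 1, and 37 to 58 without any one of the other SM libraries, AL3 replicate 3 or AL4 replicate 1. The 23 became 3, 5 and 9 without the same SM3 libraries, and 8 to 15 without any one SM2 or SM4 library, AL1 replicate 2 or 3, AL2 replicate 2, AL3 replicate 3, AL4 replicate 1 or 3, or AL6 replicate 1 or 2.

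orange1.1t00309 had the largest smallest difference among genes higher in the segment membrane at all stages. Its FPKM was 60, 83.9 and 44.9 in SM1 and 0.747, 0.372 and 0.839 in AL1 (log2 fold change 5.24, SE 0.25, adjusted p = 7.1e-05, limma). At stage 6 the values were 36.0, 35.6 and 35.4 in the segment membrane and 0.674, 0.599 and 0.532 in the albedo (log2 fold change 4.52, SE 0.13, adjusted p = 7.48e-07, limma). It was not a gene of the inner tissues alone, as the epicarp held 63.8 to 115 and the juice sac 38.7 to 60.4 at 50 DAF, and the albedo stood apart from all 3 other tissues.

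Cs5g17820 was of the other kind, with an FPKM of 168, 164 and 253 in SM1 and 10.6, 5.69 and 10.3 in AL1 (log2 fold change 4.33, SE 0.27, adjusted p = 0.000126, limma). The epicarp held 0 to 0.324 and the juice sac 3.07 to 4.48, so the segment membrane alone was high. Its mean in the segment membrane was 195 at stage 1 and again 195 at stage 6, where the albedo ranged from 1.84 to 16.1 (log2 fold change 4.70, SE 0.55, adjusted p = 0.000394, limma).

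Cs5g30700 and Cs2g21100 were higher in the albedo at all 6 stages. For Cs5g30700 the FPKM was 9.16, 19.7 and 22.1 in AL1 and 2.01, 2.20 and 2.13 in SM1 (log2 fold change -2.44, SE 0.31, adjusted p = 0.002, limma), and the difference at stage 6 was -3.23 (SE 0.14). For Cs2g21100 it was 56.0, 67.0 and 39.6 in AL1 and 2.15, 4.30 and 4.80 in SM1 (log2 fold change -3.56, SE 0.29, adjusted p = 0.000363, limma), with -2.39 (SE 0.20) at stage 6. Both genes rose with age in both tissues: the stage 6 means were 89.9 and 8.78 for Cs5g30700 and 150 and 28 for Cs2g21100, in the albedo and the segment membrane.

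The tissue difference at stage 6 was then contrasted with that at stage 1. A passing contrast shows that the difference changed, whether or not the genes changed sides. It passed the test for 7974 of 17872 genes, of which 1691 (9.46%) moved toward the segment membrane and 6283 (35.2%) toward the albedo. Under median ratio scaling the split was 3383 and 2757, so the direction of the majority depended on the scale. The numbers of genes that were called on opposite sides at the 2 stages, 298 from the segment membrane to the albedo and 135 the other way, were 94 and 309 under that scaling, and their order was reversed. On the deposited values they were 127 and 66 without AL1 replicate 2, 126 and 68 without AL1 replicate 3, 194 and 98 without SM1 replicate 1, and 70 and 51 without SM1 replicate 2.

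Cs1g09420 crossed from the albedo to the segment membrane. At stage 1 its FPKM was 415, 397 and 452 in AL1 and 17.9, 15.4 and 23.8 in SM1 (log2 fold change -4.41, SE 0.18, adjusted p = 4.92e-05, limma). At stage 6 it was 6.57, 6.55 and 7.43 in the albedo and 158, 112 and 241 in the segment membrane (log2 fold change 4.38, SE 0.24, adjusted p = 1.29e-05, limma). The 2 differences were of nearly equal size and opposite sign, and the epicarp at 50 DAF was the highest of the 4 tissues, at 1736 to 3177. At stage 6 the juice sac was the highest, with a mean of 741, beside 305 in the epicarp and 170 in the segment membrane.

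Cs3g25010 crossed in the same direction from a smaller start. Its FPKM was 16, 14.8 and 16.8 in AL1 and 10.1, 2.98 and 5.16 in SM1 (log2 fold change -1.38, SE 0.34, adjusted p = 0.0259, limma), and 5.49, 4.27 and 7.72 in the albedo against 272, 310 and 278 in the segment membrane at stage 6 (log2 fold change 5.43, SE 0.18). The stage 1 call was lost without AL1 replicate 2 (-1.42), AL1 replicate 3 (-1.34), SM1 replicate 2 (-1.03) or SM1 replicate 3 (-1.34). The mean of Cs3g25010 at stage 6 was 1167 in the juice sac, above 287 in the segment membrane, and 1.53 in the epicarp.

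Cs1g22940 and Cs3g05115 crossed the other way. Cs1g22940 had an FPKM of 61.3, 79.0 and 71.1 in SM1 and 1.29, 0.630 and 1.48 in AL1 (log2 fold change 5.08, SE 0.21, adjusted p = 4.92e-05, limma), and 6.19, 3.2 and 3.46 in the segment membrane against 15.9, 16.7 and 11 in the albedo at stage 6 (log2 fold change -1.58, SE 0.25). Here the segment membrane fell and the albedo rose, and both lay below the epicarp, which had means of 303 at stage 1 and 213 at stage 6. Cs3g05115 rose in both tissues, from 10.5, 16.6 and 22.3 in SM1 and 6.25, 2.56 and 2.86 in AL1 (log2 fold change 1.86, SE 0.35, adjusted p = 0.00948, limma) to means of 79.7 and 641 at stage 6. Its stage 1 call was lost without SM1 replicate 2 (1.82).

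**Figure D5:**
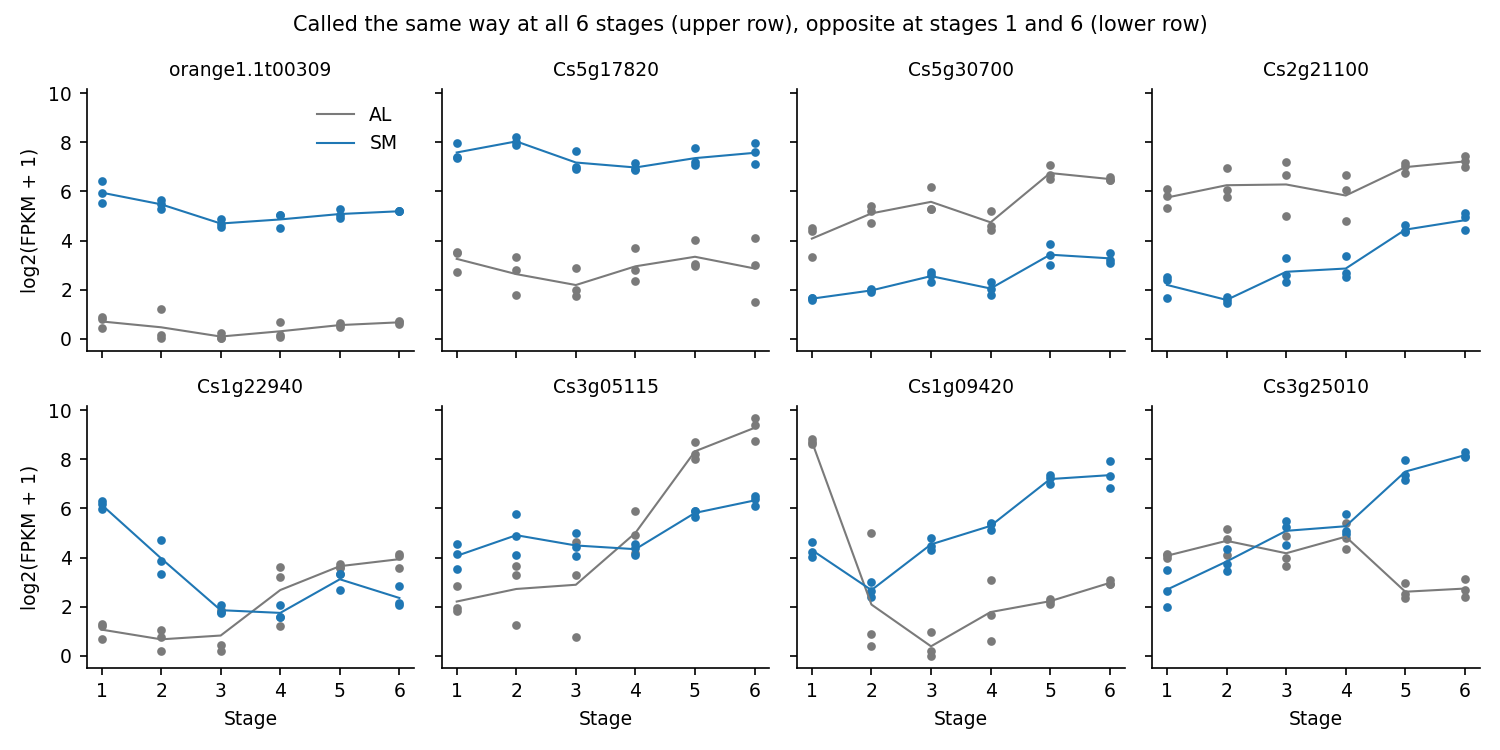
log2(FPKM + 1) of 8 genes in the albedo (grey) and the segment membrane (blue) at the 6 stages, with a point for each library and lines through the means of 3. The upper row shows genes called the same way at all stages, and in the lower row the lines cross, for Cs1g09420 with a log2 fold change of -4.41 at stage 1 and 4.38 at stage 6.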

How the data were processed

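Fruit tissues were sequenced as poly(A)-selected paired-end libraries. After filtering for adapters and read quality, the authors aligned the remaining reads to the genome of C. sinensis (TopHat) and used HTSeq 0.6.1 to obtain the deposited FPKM values, with 1 value for each gene in each library. Cufflinks is also named in the submitters' processing notes. Annotation version and strand setting were not given in the sources used here, and near-identical or overlapping genes may share reads. All 72 columns were matched to samples by name, and 0 per-sample columns were left out.

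Genes that reached 1 FPKM in 3 or more of the compared libraries were tested on log2(FPKM + 1) with limma 3.58.1 in R 4.3.3 (eBayes, trend and robust options on), two-sided, at a Benjamini-Hochberg adjusted p under 0.05. Fold changes on this scale understate those of low genes. Each comparison used its own libraries, and the contrast of stages 6 and 1 used 12. Fits were checked on simulated data. Whole fragments were recovered from the FPKM steps for 27759 of 27759 genes above 0, within 0.0001 fragments, and gave the depth per library and an alternative test with limma-voom, which called 3793 genes.

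The main fits used no replicate block. Only the alternative fit with a block took same-numbered libraries as pairs, although the study does not say which trees a number stands for. Deviations of same-numbered AL1 and SM1 libraries correlated at 0.313, 0.145 and 0.332, and the replicate 2 libraries were not each other's best match. At the other stages these correlations ranged from -0.564 to 0.324. Stage days are those of the labels.

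Genes named in the text were the 2 with the highest and the 2 with the lowest fold change among called genes whose libraries did not overlap and whose mean FPKM reached 10 in the higher tissue. The 2 per direction with the largest smallest difference over all stages, and the 2 per direction called on opposite sides at stages 1 and 6 with the largest contrast, were named likewise. Members, lists and rules were chosen with earlier results of these data known. Lists of cell walls, flavonoids, limonoids, acids, sugars and cell type markers were not run, because 0 of 30940 IDs matched the reference table.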

Additional observations from a re-analysis of the deposited data

Results flagged for a closer look

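The difference between segment membrane and albedo itself differed between stage 6 and stage 1 for 7974 of 17872 genes (limma contrast, adjusted p under 0.05). Among the named genes, the contrast on the log2 scale was -7.98 for Cs5g25660, -8.71 for Cs6g11590, 5.13 for Cs5g01970 and 3.39 for Novel00378, all of which had their largest tissue difference at stage 1. It was 1.16 for Cs2g21100, whose albedo excess was smaller at stage 6. For the genes that changed sides it was -6.66 for Cs1g22940, -4.81 for Cs3g05115, 8.80 for Cs1g09420 and 6.80 for Cs3g25010. The contrast shares the AL1 and SM1 libraries with the stage 1 comparison. The genes with the largest stage 1 differences were chosen for those differences, which favours a maximum at stage 1. Those that changed sides were chosen for a large contrast, so the values of both kinds are a description.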

How the results depend on the processing

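With 3 libraries a group, the count of calls depended on single libraries, and a gene high in 1 tissue only drops out of the test when a library of that tissue is left out. A fit without a library also has fewer degrees of freedom, and this was not separated from the effect of the library itself. Because of the filter, leaving out an SM1 library gave no value for orange1.1t00309, and leaving out an AL1 library none for Cs5g01970. Most called genes had libraries that did not overlap (2456 of 2462 and 1483 of 1485, beside 27.0% and 15.2% of all genes tested). A call favours such genes, and leaving out a library could not turn their sign, so the kept sign is no test of them. Of the results for single named genes under the alternatives, 358 kept and 5 lost the call, as given with those genes. With a pseudocount of 5 the stage 1 fold change was 3.55 for orange1.1t00309, 3.62 for Cs1g22940, -1.57 for Cs5g30700, -2.74 for Cs2g21100 and 1.26 for Cs3g05115, and with limma-voom it was 6.59 for orange1.1t00309 and 6.0 for Cs1g22940. The alternatives that leave out libraries of stages 2 to 6, EP1 or JS1 were chosen after seeing the data.

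With the replicate number as a block, 4899 genes were called at stage 1, of which 2395 higher and 1448 lower were shared with the fit without the block, and the genes higher in AL at all stages numbered 15. At stage 4 the block lowered the calls from 976 to 444, and at stage 2 from 2439 to 1578.

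A filter of an FPKM of at least 5 gave 1621 genes higher in SM1, 41 and 12 at all stages, 335 higher in SM1 and SM6, 173 in SM1 and AL6, 740 in SM1 and JS1, 284 in SM1 and EP1 and 458 in AL1 and EP1. Median ratio scaling gave 94 in SM1 and AL6, 309 in AL1 and SM6, 228 in SM1 and EP1, 348 in AL1 and JS1, and contrast counts of 2757 and 3383. One fit of all 24 groups gave 142 and 85 at all stages and 650 in SM1 and EP1. At least 2-fold differences were 2232, 1340 higher and 892 lower, and an adjusted p under 0.01 left 1602, 963 and 639. The difference in detected genes was 388.7 at an FPKM of 0.1. At a limit of 2, summed FPKM in SM1 minus AL1 was 603 for the SM list and 352 for the JS list. The cause of these shifts was not tested, except that stricter limits retain fewer genes by construction.

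Leaving out 1 library gave 1290 to 4169 called genes, 657 to 2654 higher and 633 to 1515 lower in SM1. At all stages it gave 18 to 101 and 3 to 31 genes. It gave 178 to 533 genes in SM1 and SM6, 258 to 595 in AL1 and AL6, 70 to 373 in SM1 and AL6, and 51 to 153 in AL1 and SM6. Against JS1 and EP1 it gave 395 to 1104 in SM1 and JS1, 88 to 502 in SM1 and EP1, 328 to 700 in AL1 and EP1, and 69 to 263 in AL1 and JS1. The contrast counts were 5870 to 8230, 4536 to 6402 and 1331 to 1828.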

Other observations

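Of 9348 pairs of consecutive tested IDs at 50 DAF, 394 (4.21%) were called in the same direction and 173 (1.85%) in opposite directions. Of single genes, 14.8% were higher in SM1 and 8.92% lower. Shares of pairs cannot be read directly against shares of single genes, and whether neighbouring IDs were called together was not tested. There were 8 runs of at least 5 consecutive tested IDs called one way, 6 higher and 2 lower in SM1. A run of 7, the longest length found, went from Cs5g15210 to Cs5g15300, with log2 fold changes of 1.30 to 8.53 and mean FPKM of 4.53 to 1560 in SM1, 0.14 to 5.41 in AL1 and 0.748 to 83.8 in JS1. This run was singled out after its values were seen, 3 of the 10 IDs in its range were not tested, and genes with near-identical copies may share reads, so its values are uncertain.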
